A study of Mus musculus with 16 samples.

Results

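A set of 10 genes of the endothelium, the cell layer that lines blood vessels, were followed in RNA sequencing libraries of epidermal cells from aged mice. The genes are Pecam1, Cdh5, Esam, Vwf, Emcn, Kdr, Flt1, Tek, Tie1 and Egfl7. They were taken by name as widely used vessel genes, with earlier results of these data known. All 10 are among the 27179 genes of the count table. The animals were C57bl/6J mice aged 73 weeks when treatment began. A group of 4 mice received control IgG and the other group of 4 received antibodies that block the cytokines IL-17A and IL-17F, injected intraperitoneally 3 times a week for 12 weeks (the anti-IL-17A/F or treated group). The antibody acts on the whole animal rather than on 1 cell type. According to the methods of the study, epidermis was separated from the torso skin with dispase and scraped off as a cell suspension, and no sort for a cell type is described for these samples. The comparison asks whether the level of vessel transcripts in such suspensions differed between the treatments.

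The epidermis itself has no blood vessels. Capillaries lie in the dermis below it and around hair follicles, so transcripts of vessel cells are expected to be rare in an epidermal suspension. Endothelial cells are held together by junction proteins such as VE-cadherin and grow in response to VEGF and angiopoietin ligands, which act on receptor tyrosine kinases that the cells carry. A bulk sample cannot tell fewer endothelial cells from less RNA per endothelial cell, and this holds for every level given here.

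Each mouse gave 42816157 to 53721153 counts over 2 sequencing batches, and the runs of a mouse were summed. The libraries were dominated by keratinocyte genes: Krt10, a keratin of differentiating cells, was at 11460 to 14530 CPM (counts scaled to a library total of 1000000), and Krt14, a keratin of basal cells, at 3210 to 4042 CPM. Here and below CPM divides each count by the library total after TMM scaling, so it compares mice and not genes of different length. Anti-IL-17A/F mouse 2 had the lowest total. Anti-IL-17A/F mouse 4 stood apart in hair follicle, melanocyte and proliferation genes, as given below, and several results that rest on it are also given without it.

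The receptors are the members through which ligands reach the endothelium. Kdr (VEGFR2) carries most of the growth signal of VEGF-A, whereas Flt1 (VEGFR1) binds VEGF-A tightly and is widely described as a decoy. Tek (TIE2) is the receptor of the angiopoietins and Tie1 its partner. The 250 bases before the RefSeq start of each receptor gene (GRCm38.p6) are shown because these 4 genes pair off by ligand and yet differed in their pattern over the mice, as described below. Capitals mark GGAAGT, an extended core of ETS family sites, or the TATA box, spelled TATAAA, on either strand. Each window reads 5′ to 3′ on the strand of its gene.
Kdr, chr5:75978456-75978705, minus strand: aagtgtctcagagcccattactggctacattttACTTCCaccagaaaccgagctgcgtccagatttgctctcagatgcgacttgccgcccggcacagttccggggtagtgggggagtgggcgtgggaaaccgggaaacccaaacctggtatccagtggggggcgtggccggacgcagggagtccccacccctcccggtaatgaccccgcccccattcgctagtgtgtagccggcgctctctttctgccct
Flt1, chr5:147726012-147726261, minus strand: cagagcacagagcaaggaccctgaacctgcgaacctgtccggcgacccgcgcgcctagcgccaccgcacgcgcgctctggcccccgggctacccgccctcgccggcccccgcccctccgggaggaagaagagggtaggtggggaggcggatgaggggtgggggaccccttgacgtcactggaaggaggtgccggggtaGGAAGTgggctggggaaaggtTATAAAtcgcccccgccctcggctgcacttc
Tek, chr4:94739039-94739288, plus strand: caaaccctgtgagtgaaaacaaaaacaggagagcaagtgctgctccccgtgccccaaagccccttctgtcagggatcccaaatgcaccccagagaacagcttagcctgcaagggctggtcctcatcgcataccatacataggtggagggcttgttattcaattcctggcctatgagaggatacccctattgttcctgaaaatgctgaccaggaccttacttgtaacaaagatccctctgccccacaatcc
Tie1, chr4:118489850-118490099, minus strand: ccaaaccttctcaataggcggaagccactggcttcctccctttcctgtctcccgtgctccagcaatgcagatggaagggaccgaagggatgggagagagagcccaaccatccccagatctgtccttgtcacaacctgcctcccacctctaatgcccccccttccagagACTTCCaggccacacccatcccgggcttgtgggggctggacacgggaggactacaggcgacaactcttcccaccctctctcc
GGAAGT or its reverse complement was found in the windows of Kdr, Flt1 and Tie1 and not in that of Tek. With Egfl7 it was in 4 of the 6 members that have a window in the table, against 22.2% of all 27025 genes with a window. Egfl7 has more than 1 window, and by window the letters were in 5 of 8 for the members, against 19.7% of all 32851 windows. TATAAA was found in Flt1 alone of the 6, against 14.3% of all genes. The GATA family motif searched, AGATAA, was in 0 of the 6, against 11.4% of all genes. In Kdr the GGAAGT match began 217 bases before the start, and in Tie1 82 bases before it. These are matches of letters within short windows, and binding was not measured.

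All 10 members were detected in every mouse, at very low levels. Together they gave 387 to 528 counts in a control mouse and 396 to 843 counts in an anti-IL-17A/F mouse, or 0.000757% to 0.00166% of all counts. Single members had 3 to 305 counts in a mouse, so counting error adds to their spread. Per kilobase of exonic sequence, averaged over the 8 mice, Egfl7 was highest at 0.344 CPM per kb, followed by Pecam1 at 0.268 and Vwf at 0.189. Emcn was lowest at 0.0460 CPM per kb, below Flt1 at 0.0749 and Kdr at 0.0830. Esam (0.160), Cdh5 (0.153), Tek (0.125) and Tie1 (0.104 CPM per kb) lay between. Every pair of neighbours in this order overlapped in their ranges over the 8 mice. All genes were read in the same mice, so overlap of ranges cannot show whether an order held within each mouse. The order within each mouse was not tested.

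Vwf encodes von Willebrand factor, the large secreted protein that tethers platelets to a damaged vessel wall. The gene lies at chr6:125546774-125686679 (GRCm38, plus strand) and had the most counts of the members. It was at 2.22, 2.29, 2.41 and 2.29 CPM in the 4 control mice and at 4.81, 2.19, 2.22 and 5.90 CPM in treated mice 1 to 4. Mice 1 and 4 of the treated group were thus clearly above all others, while mice 2 and 3 lay just below the lowest control mouse and the groups overlapped. The means were 2.30 ± 0.0781 CPM (SD, n = 4) and 3.78 ± 1.88 CPM (SD, n = 4), a log2 fold change of 0.72 (SE 0.32, 95% interval -0.003 to 1.44), and 0.42 without treated mouse 4. The variance among control mice was 0.137 times that expected from counting error, and among treated mice it was 45 times. The high values were present in both sequencing runs of each mouse, with 123 and 132 counts for mouse 1 and 147 and 158 counts for mouse 4 in runs 1 and 2. Both runs read the same library, so they are not separate measurements of the tissue.

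Pecam1 encodes the adhesion molecule CD31 at endothelial cell contacts, which platelets and leukocytes also carry, and lies at chr11:106654217-106750628 (minus strand). Control mice had 1.53, 1.31, 1.318 and 1.27 CPM. Anti-IL-17A/F mice had 2.34, 1.95, 1.00 and 2.65 CPM. Treated mice 1, 2 and 4 were therefore above the highest control mouse, and treated mouse 3 was the lowest of all 8. The means were 1.36 ± 0.115 and 1.99 ± 0.716 CPM (SD, n = 4 each), a log2 fold change of 0.55 (SE 0.27, 95% interval -0.06 to 1.16).

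**Figure D1:**
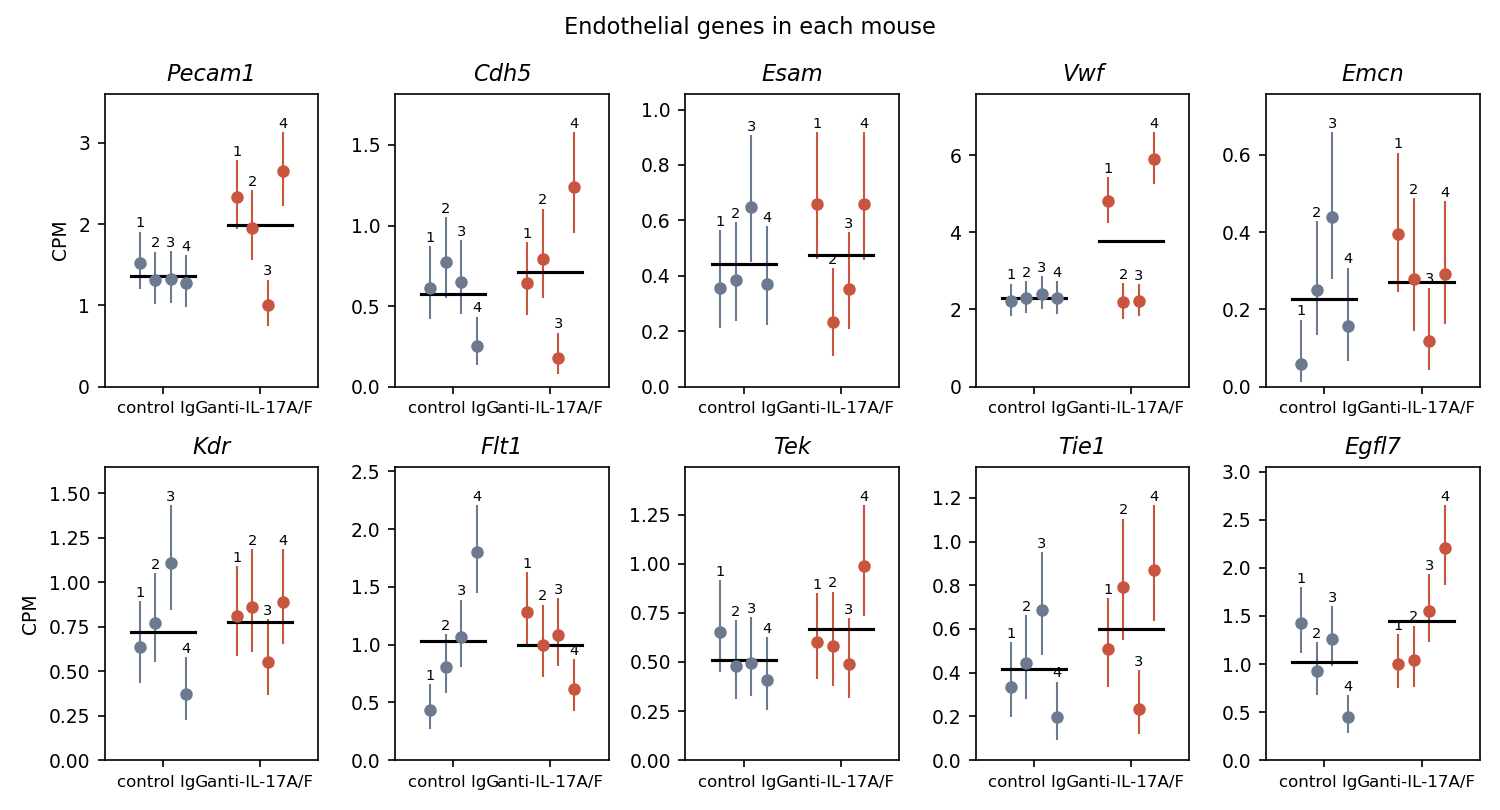
Level of each of the 10 endothelial genes, in CPM, in the 4 control IgG and 4 anti-IL-17A/F mice. Points are mice, labelled by number, with exact 95% Poisson intervals for counting error, and black lines are group means; Vwf is at 4.81 and 5.90 CPM in treated mice 1 and 4 and at 2.19 to 2.41 CPM in the other 6 mice.

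The remaining junction and surface members had smaller log2 fold changes than Vwf and Pecam1, a difference that was not tested. Cdh5, VE-cadherin of the adherens junctions (chr8:104101625-104144511, plus strand), was at 0.614, 0.771, 0.650 and 0.254 CPM in control mice and at 0.641, 0.791, 0.177 and 1.24 CPM in treated mice. Its lowest value, from 9 counts, and its highest, from 64 counts, were both in the treated group. The log2 fold change was 0.31 (SE 0.51), and it was -0.11 without anti-IL-17A/F mouse 4. Esam, an adhesion molecule of tight junctions (chr9:37528078-37538319, plus strand), was at 0.357, 0.385, 0.650 and 0.372 CPM in control and at 0.660, 0.233, 0.353 and 0.658 CPM in treated mice. Control mouse 3 and treated mice 1 and 4 shared nearly the same high value. The log2 fold change of 0.12 (SE 0.37) became -0.072 without treated mouse 1 and -0.069 without treated mouse 4. Emcn, the sialomucin endomucin of capillaries and veins (chr3:137341067-137432185, plus strand), was at 0.0594, 0.251, 0.440 and 0.156 CPM in control and 0.396, 0.279, 0.118 and 0.290 CPM in treated mice. With 3 to 23 counts per mouse it is the least precise member, and its log2 fold change of 0.25 (SE 0.54) was -0.056 without control mouse 1.

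The VEGF receptors lie apart on chromosome 5. Kdr (chr5:75932827-75978458, minus strand) was at 0.634, 0.771, 1.11 and 0.372 CPM in control mice and 0.811, 0.860, 0.550 and 0.891 CPM in treated mice. The control mice held both its highest and its lowest value. Its log2 fold change was 0.11 (SE 0.32), and -0.11 without control mouse 4. Flt1 (chr5:147561604-147726011, minus strand) was at 0.436, 0.810, 1.07 and 1.80 CPM in control and 1.28, 1.00, 1.08 and 0.620 CPM in treated mice. It was the only member with a lower treated mean, at a log2 fold change of -0.05 (SE 0.40), and control mouse 4, with the highest Flt1, had the lowest Kdr, Tie1, Tek and Egfl7. Without that mouse the Flt1 difference was 0.36.

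The angiopoietin receptors are both on chromosome 4. Tek (chr4:94739289-94874976, plus strand) was at 0.654, 0.482, 0.497 and 0.411 CPM in control mice and 0.603, 0.581, 0.491 and 0.987 CPM in treated mice. Apart from treated mouse 4 its groups were nearly level, and the log2 fold change of 0.38 (SE 0.27) was 0.13 without that mouse. Tie1 (chr4:118471191-118490061, minus strand) was at 0.337, 0.443, 0.688 and 0.196 CPM in control and 0.509, 0.791, 0.236 and 0.871 CPM in treated mice, a log2 fold change of 0.52 (SE 0.46), and 0.28 without treated mouse 4. Treated mice 2 and 4 had the highest Tie1, and both groups held a mouse at or below 0.236 CPM. Egfl7 encodes a secreted protein that endothelial cells deposit in the vessel matrix and lies at chr2:26580014-26593120 (plus strand). It was at 1.43, 0.925, 1.26 and 0.450 CPM in control and 0.999, 1.05, 1.55 and 2.21 CPM in treated mice, a log2 fold change of 0.52 (SE 0.37), and 0.24 without treated mouse 4. Treated mice 3 and 4 were above every control mouse. Of the exonic sequence of Egfl7, 9.41% is shared with Gm20532 and Mir126a on the same strand and 3.41% with Agpat2 and Mir126b on the opposite strand. Whether reads were counted by strand is not stated in the labels or methods, so its level is less certain than that of the other 9 members, whose exons overlap no annotated gene.

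None of the 10 members passed the test. Across all 16335 genes tested with the quasi-likelihood test of edgeR, 0.0% fell below an adjusted p of 0.1 (Benjamini-Hochberg), and the adjusted p of the members was 0.984 to 0.995. At an unadjusted p below 0.05 there were 401 higher genes (2.45% of those tested) and 257 lower ones (1.57%), 658 or 4.03% in all, and 0 of the 10 members. In this edgeR test the smallest unadjusted p of a member was that of Vwf, 0.0509, followed by Pecam1 at 0.0720. DESeq2 called 11 of 13257 genes (0.083%) and limma-voom 0 of 16335 (0.0%). DESeq2 gave no adjusted p for 9 of the 10 members, which its filter on low means left out, and Vwf, the member that had one, was not called. Limma-voom called none of the 10. In direction, 9 of the 10 members had a higher treated mean, where 50.1% of all genes tested and 52.4% of those averaging under 5 CPM did. The median log2 fold change of the members was 0.35, against 0.0001 over all genes, and it was 0.17 without anti-IL-17A/F mouse 4. A log2 fold change of at least 0.5 was seen in Vwf, Pecam1, Tie1 and Egfl7, 4 of the 10 members, against 2.31% of all genes and 6.41% of those averaging under 5 CPM. Without treated mouse 4 all 4 were below 0.5 (Vwf 0.42, Pecam1 0.38, Tie1 0.28 and Egfl7 0.24). In 6 of the 10 members the highest of the 8 mice was treated mouse 4, as it was for 16.9% of all genes and 18.7% of those under 5 CPM. In each of the 10 members the values of the groups overlapped, whereas 2.42% of all genes did not overlap.

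**Figure D2:**
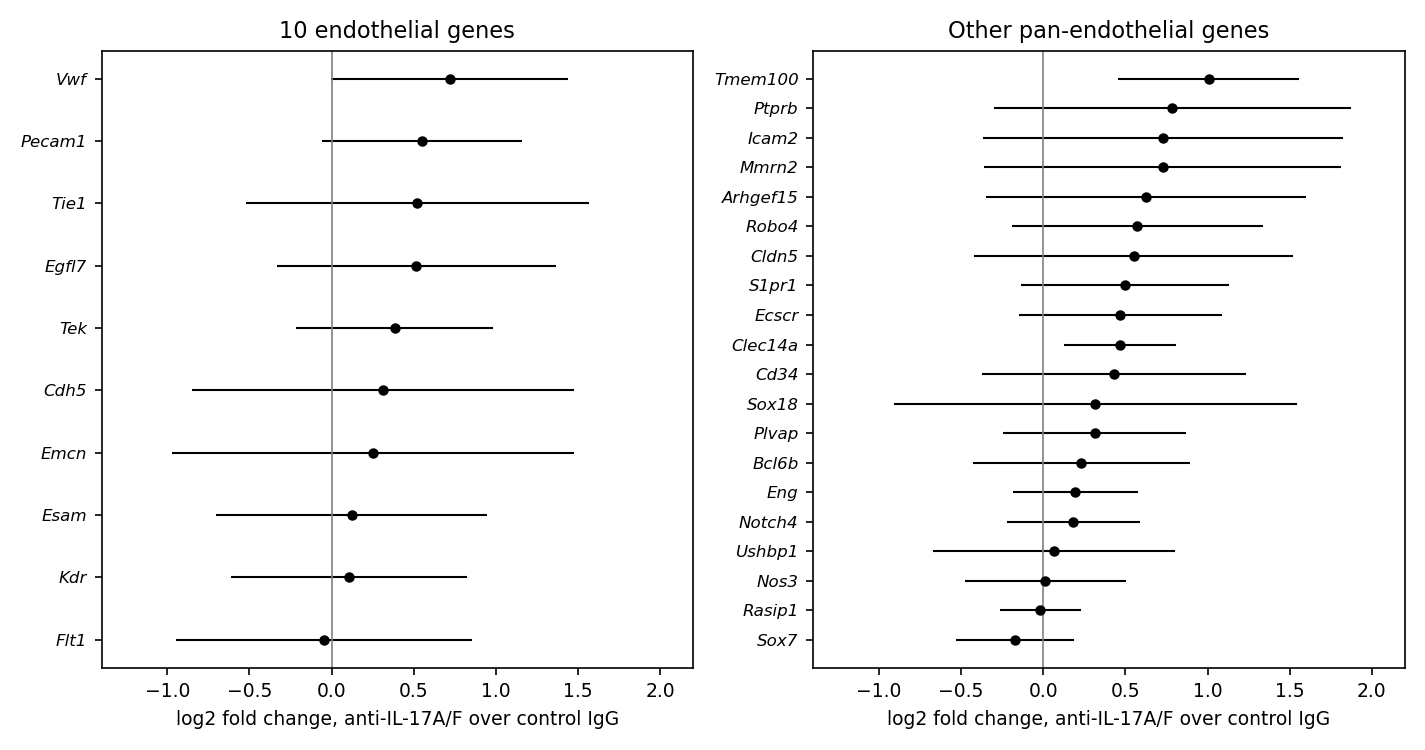
Log2 fold change of anti-IL-17A/F over control IgG with 95% intervals from the edgeR fit, for the 10 endothelial genes (left) and for 20 other pan-endothelial genes that passed the filter (right). The intervals of all 10 members include 0, and on the right those of Tmem100 and Clec14a do not.

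The summed level of the 10 genes gives a single value for each mouse. It was 8.26, 8.44, 10.1 and 7.57 CPM in control mice 1 to 4 and 13.1, 9.72, 7.77 and 16.3 CPM in treated mice 1 to 4. Exact Poisson intervals for counting error were 15.2 to 17.5 CPM for treated mouse 4 and 12.1 to 14.1 CPM for treated mouse 1, above that of every control mouse, the highest of which reached 10.99 CPM. Treated mouse 3 was at the level of the control mice, so the groups overlapped. The means were 8.59 ± 1.07 and 11.7 ± 3.77 CPM (SD, n = 4 each), a ratio of 1.36 (log2 0.45). This difference is smaller than the SD of the treated group, and no test was made on the sum. Without treated mouse 4 the log2 ratio was 0.24, without treated mouse 3 it was 0.60, and without Vwf in the sum, an alternative chosen after the values were seen, it was 0.34. Vwf made up 22.5% to 36.9% of the members' counts in a mouse, with the highest shares in treated mice 1 and 4 (36.9% and 36.2%) and the lowest in treated mouse 2.

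**Figure D3:**
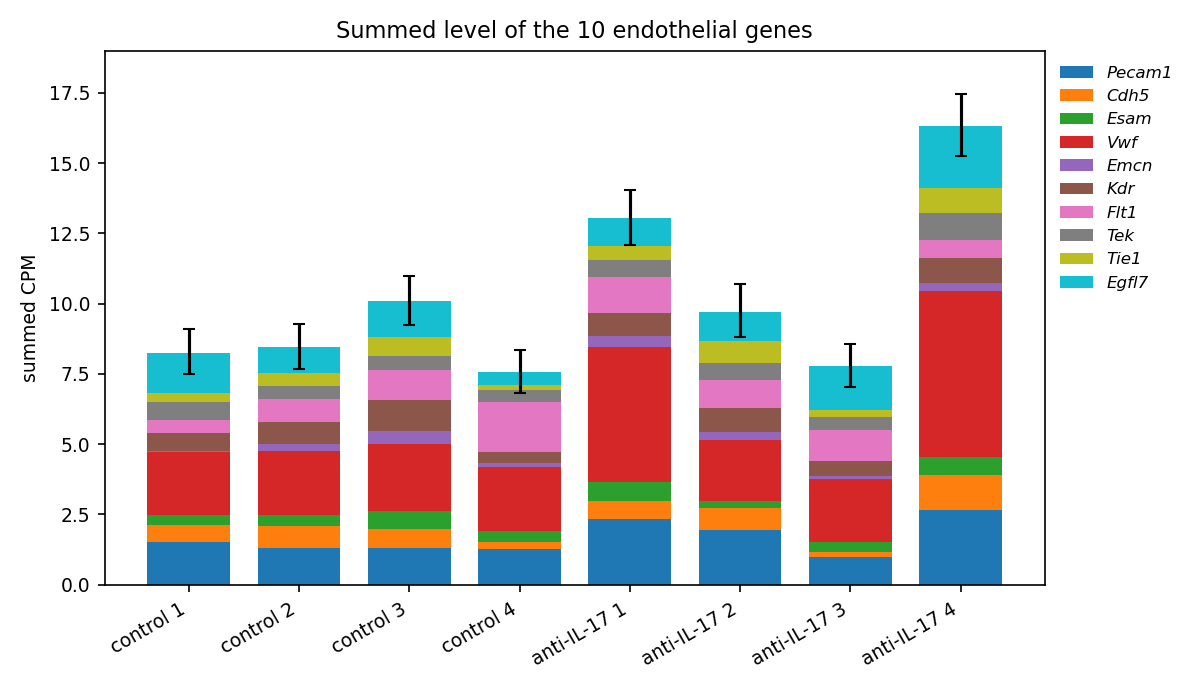
Summed CPM of the 10 endothelial genes in each mouse, stacked by gene, with exact 95% Poisson intervals for counting error on the total. Treated mice 4 (16.3 CPM) and 1 (13.1 CPM) are highest, and treated mouse 3 (7.77 CPM) lies among the 4 control mice.

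The members did not share a single pattern over the mice. Each gene's log2 CPM was centred on its own mean and set against the median of the other 9 members, as a root mean square difference over the 8 mice. Pecam1 and Tek were nearest to the rest (0.26 each), then Kdr (0.32) and Vwf (0.36). Flt1 was farthest (0.77), beyond Emcn (0.59) and Cdh5 (0.57). Emcn and Cdh5 had as few as 3 and 9 counts in a mouse. Relative to counting error, the variance of Flt1 was 16.4 times among control and 4.02 times among treated mice, that of Cdh5 was 4.43 and 13.8 times, and that of Emcn was 5.93 and 2.51 times.

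Among the 13453 other genes with a symbol that averaged at least 1 CPM, the profile nearest to the summed level over the 8 mice was that of Plvap, the protein of the diaphragms that span capillary pores, with a root mean square difference of 0.14 on the log2 scale. The median over those genes was 0.39, and the SD of the summed level itself over the mice was also 0.39. Of the members, Flt1 (0.73), Cdh5 (0.58), Emcn (0.58), Egfl7 (0.52) and Tie1 (0.47) were farther from the sum than that median, although each is part of the sum. A gene that did not vary over the mice would lie about as far as the median, so the median is no measure of likeness. Of these members, Cdh5, Emcn and Tie1 averaged below the 1 CPM required of the other genes, so counting error adds more to their distance. Plvap was at 1.49, 1.45, 1.43 and 1.29 CPM in control and 1.87, 1.58, 1.04 and 2.54 CPM in treated mice, so like the summed level it was highest in treated mice 4 and 1, while its lowest value was in treated mouse 3 and that of the sum in control mouse 4. The next were Wdr31 (0.20), Bend5 (0.20), Gpm6b (0.21), Etv5 (0.21), Shc4 (0.21), Slc6a17 (0.22) and Traip (0.22), each with its highest value in treated mouse 4. This order is a description over 8 mice that share that mouse.

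Most other genes with known roles in endothelium also had a higher treated mean, though none passed the test. Of 30 such genes, 20 passed the filter on low counts, and 18 of these had a higher treated mean and 2 a lower one, with a median log2 fold change of 0.45 (0.23 without anti-IL-17A/F mouse 4). Of all genes tested, 50.1% had a higher treated mean. At an unadjusted p below 0.05 in edgeR there were 2 of the 20, both higher, against 4.03% of all genes tested in either direction. Tmem100, a membrane protein that acts downstream of BMP9 and ALK1 in arteries, was at 0.535, 0.559, 0.631 and 0.293 CPM in control and 0.886, 0.977, 1.00 and 1.20 CPM in treated mice. The groups did not overlap, as for 2.42% of all genes tested, and the log2 fold change was 1.01 (SE 0.24, edgeR adjusted p = 0.984, unadjusted p = 0.00245). Clec14a, a C-type lectin of sprouting endothelium, was at 1.85 ± 0.287 and 2.56 ± 0.270 CPM (SD, n = 4 each), a log2 fold change of 0.47 (SE 0.15, edgeR adjusted p = 0.984). S1pr1, the sphingosine 1-phosphate receptor (0.50, SE 0.28), Ecscr (0.47, SE 0.27), Robo4 (0.57, SE 0.34) and Ptprb, the phosphatase that acts on TIE2 (0.79, SE 0.48), followed by p. Ptprb was at 1.53 and 2.19 CPM in treated mice 1 and 4, against 0.469 to 0.994 CPM in control mice, and had its lowest value, 0.334 CPM, in treated mouse 3. In 13 of the 20 genes treated mouse 4 was the highest of the 8, as it was for 16.9% of all genes tested and 18.7% of those averaging under 5 CPM.

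**Figure D4:**
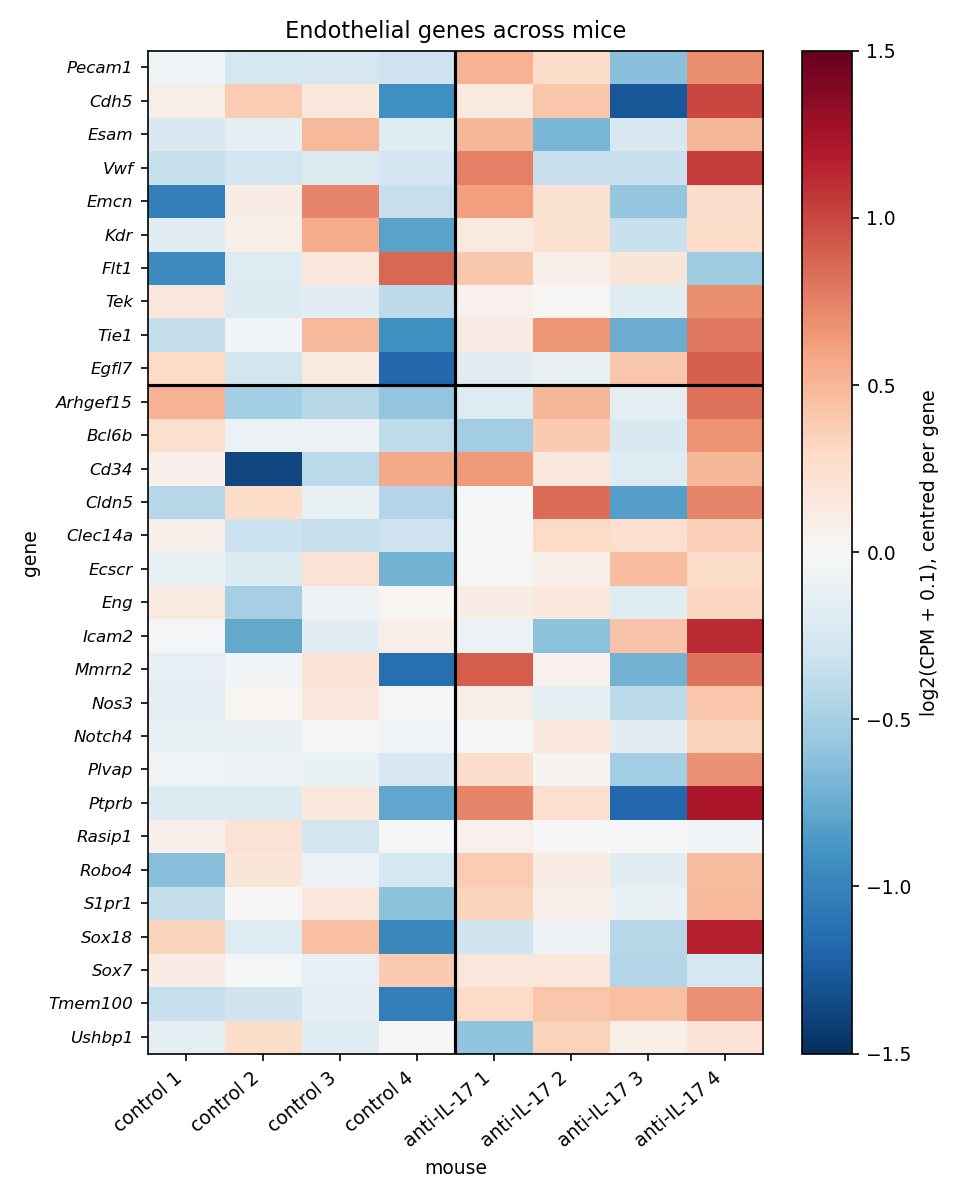
Level of the 10 endothelial genes (above the line) and 20 other pan-endothelial genes (below it) in each mouse, as log2(CPM + 0.1) centred on the gene's mean, with red above and blue below that mean. The column of anti-IL-17A/F mouse 4 is red for most genes of both sets, and Flt1, Sox7 and Rasip1 are exceptions.

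These genes did not all behave as vessel genes in this material. Sox7, Cd34 and Rasip1 held 85.5% of the counts of the list, with Sox7, a transcription factor, at 36.4 to 64.6 CPM and Cd34 at 13.1 to 52.9 CPM in a mouse, far above any member. Of the exonic sequence of Rasip1, 20.4% is shared with Izumo1 on the same strand and 22.5% with genes on the opposite strand, so its level is less certain. Cd34 also marks stem cells of the mouse hair follicle bulge. The sum over the other 27 genes, trimmed after the levels were seen, was 14.1 ± 1.59 CPM in control and 18.5 ± 4.46 CPM in treated mice (SD, n = 4 each). It was again highest in treated mouse 4, at 24.4 CPM, against 13.6 to 18.2 CPM in treated mice 1 to 3 and 12.4 to 15.65 CPM in control mice.

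The VEGF ligands Vegfa, Vegfb and Vegfd had higher CPM than any member, whereas the angiopoietins, the ligands of TIE2, were at member levels (Angpt1 1.97 and 1.44 CPM, Angpt2 0.769 and 0.646 CPM in control and treated means). Of 11 ligand and co-receptor genes 8 passed the filter, 3 with a higher and 5 with a lower treated mean, and the median log2 fold change was -0.09. Vegfa, the main ligand of both VEGF receptors and a product of keratinocytes, was at 46.7, 46.3, 50.3 and 47.3 CPM in control and 44.1, 48.5, 60.3 and 35.4 CPM in treated mice. Its lowest level was thus in treated mouse 4, where the summed endothelial level was highest, and its highest in treated mouse 3, where the summed level was lowest of the treated mice. Among control mice, mouse 3 had both the highest Vegfa and the highest summed level (10.1 CPM). The log2 fold change of Vegfa was -0.02 (SE 0.14), and that of Vegfb, a ligand of Flt1, was 0.06 (SE 0.08). Vegfd was at -0.20 (SE 0.13). The angiopoietins Angpt1, which activates TIE2 (-0.45, SE 0.25), and Angpt2, which can oppose it (-0.25, SE 0.25), both had lower treated means. The co-receptors Nrp1 (-0.16, SE 0.18) and Nrp2 (0.24, SE 0.25) differed in sign. Apln, a peptide made by sprouting tip cells, had the smallest p of the list, with 1.38 ± 0.352 and 2.03 ± 0.365 CPM (SD, n = 4 each) and a log2 fold change of 0.56 (SE 0.21, edgeR adjusted p = 0.984, unadjusted p = 0.0273). None of the 8 was called.

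Markers of other cell types of skin were read beside these values. All 6 lymphatic endothelial genes had a higher treated mean, with Ccl21a, a chemokine of lymphatic vessels, at 0.58 (SE 0.35) and Mmrn1 at 0.58 (SE 0.35) and a median of 0.39. Their sum was 3.49 to 6.50 CPM in control and 4.10 to 8.60 CPM in treated mice, highest in treated mouse 2. Of the pericyte and smooth muscle list, cells that wrap small vessels, 6 of 9 were higher and the sum was level at 383 to 435 CPM in control and 392 to 417 CPM in treated mice. Notch3 and Cspg4, which held most of that sum at 264 to 331 and 69.6 to 119 CPM, lay far above Pdgfrb (0.981 to 2.17 CPM), and Rgs5, a defining marker of pericytes, had 9 counts in all control mice and 20 in all treated mice. Mcam (0.31, SE 0.10) and Cspg4 (0.31, SE 0.13) had the smallest p. The 3 lower ones were Pdgfrb (-0.46, SE 0.22), Notch3 (-0.10, SE 0.07) and Tagln (-0.006, SE 0.12). Genes on the opposite strand overlap 67.9% of the exonic sequence of Tagln. Of the fibroblast genes 6 of 10 were higher, where 50.1% of all genes tested were. Fbln1 (0.49, SE 0.19) and Col1a2 (0.46, SE 0.20) had the smallest p. The 4 lower ones were Col3a1 (-0.35, SE 0.36), Dpt (-0.23, SE 0.29), Col1a1 (-0.12, SE 0.37) and Pdgfra (-0.06, SE 0.40). The sum of the fibroblast list was 270 to 566 CPM in control and 434 to 689 CPM in treated mice, highest in treated mouse 1. Postn held 77.5% to 86.3% of that sum, and without it, left out after the levels were seen, the sum was 60.1 to 103 CPM in control and 84.4 to 124.5 CPM in treated mice, highest in treated mouse 4. The median log2 fold change was 0.10 for the pericyte list (-0.04 without treated mouse 4) and 0.07 for the fibroblast list (-0.11 without control mouse 2).

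Blood cells were compared because Vwf and Pecam1 are also carried by platelets. Of the 9 platelet genes, Ppbp, Gp6 and Treml1 were at 0 in every mouse and Pf4 and Gp9 had at most 3 counts in any mouse. The 4 that passed the filter, among them Gp1bb (-0.09, SE 0.08) and Itgb3 (-0.24, SE 0.26), all had lower treated means. The sum of the list was 62.5 to 69.9 CPM in control and 54.6 to 66.2 CPM in treated mice, but Gp1bb held 90.4% to 93.2% of it, and 92.9% of the exonic sequence of Gp1bb is shared with Gm49601 and Sept5. Without Gp1bb, left out after the levels were seen, the sum was 4.78 to 5.66 CPM in control and 4.50 to 5.25 CPM in treated mice. Red cell genes summed to 7.59 to 8.73 CPM in control and 6.72 to 9.06 CPM in treated mice, with Alas2 at -0.13 (SE 0.15) and Hbb-bs at 0.04 (SE 0.36). Macrophage genes had a lower treated mean in 8 of 9 cases (C1qb -0.72, SE 0.33, C1qa -0.70, SE 0.38) and T cell genes in 8 of 8 (Trac -0.83, SE 0.33, Cd3e -0.28, SE 0.14), the opposite direction to the endothelial genes.

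Several lists of epidermal and follicle cells were at their highest in anti-IL-17A/F mouse 4, as was the endothelial sum. Melanocyte genes summed to 63.8 to 95.9 CPM in control mice and 72.1 to 76.7 CPM in treated mice 1 to 3, but to 149.8 CPM in treated mouse 4. The hair list, which covers shaft and root sheath, summed to 69.9 to 171 CPM in control mice, 55.7 to 164 CPM in treated mice 1 to 3 and 298 CPM in treated mouse 4. Proliferation genes summed to 204 to 367 CPM in control mice, 233 to 360 CPM in treated mice 1 to 3 and 583 CPM in treated mouse 4. That mouse was the highest in 7 of 8 melanocyte, 10 of 12 hair and 10 of 10 proliferation genes, against 16.9% of all genes tested. The medians of these lists were 0.29 (Mitf 0.25, SE 0.15, and Slc45a2 0.75, SE 0.51), 0.27 (Msx2 0.53, SE 0.16, and Hoxc13 0.54, SE 0.18) and 0.30 (Cenpf 0.33, SE 0.23, and Bub1 0.46, SE 0.42), and without treated mouse 4 they were -0.23, -0.63 and -0.08. Treated mouse 1, with the next highest endothelial sum, had the lowest hair sum of all 8 mice and melanocyte and proliferation sums within the control range. The keratinocyte sum was level, at 47050 to 51400 CPM in control and 48110 to 51450 CPM in treated mice, with Krt14 at -0.11 (SE 0.09) and Itga6 at -0.05 (SE 0.08). The part of follicle, melanocyte and dividing cells in the endothelial level of treated mouse 4 was not tested.

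**Figure D5:**
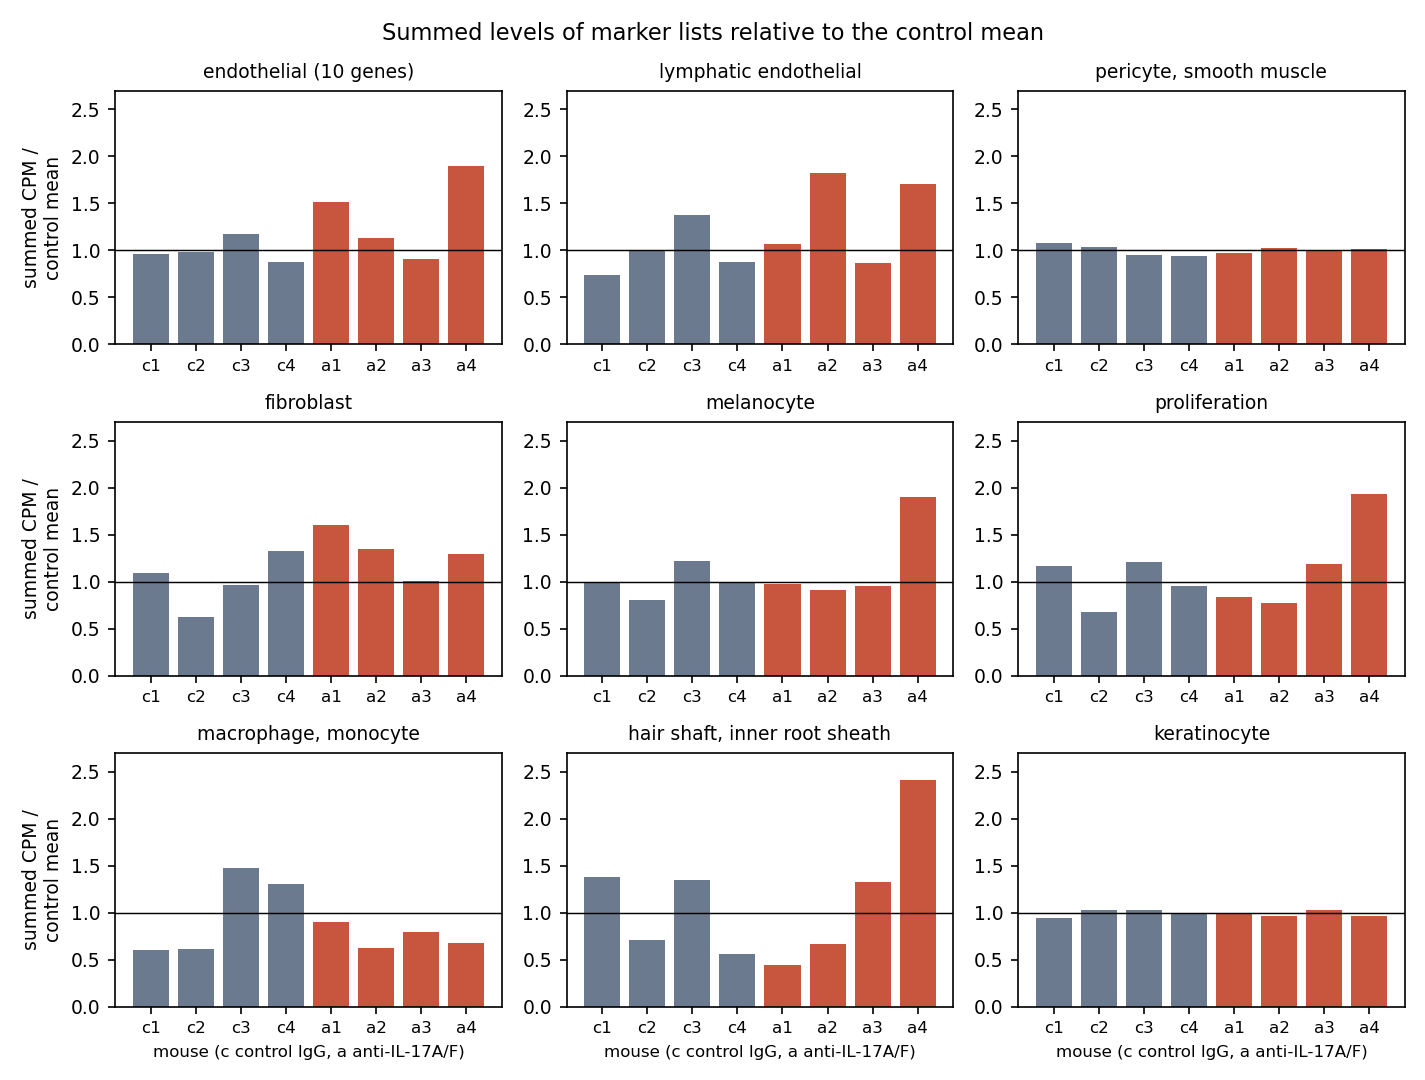
Summed CPM of 9 marker lists in each mouse, divided by the mean of the 4 control mice (line at 1); c1 to c4 are control IgG and a1 to a4 anti-IL-17A/F mice. Mouse a4 is highest for the endothelial, melanocyte, proliferation and hair lists, whereas a1 is lowest for the hair list and highest for the fibroblast list, in which Postn holds 77.5% to 86.3% of the sum. Notch3 and Cspg4 hold most of the pericyte and smooth muscle sum.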

How the data were processed

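Unnormalized counts by Entrez gene were deposited for 16 runs: the library of each of 8 mice was sequenced in 2 batches, and the runs of a mouse were summed (chi-square per gene between runs 0.996 to 1.06, close to sampling noise). Per the labels and methods of the study, the authors aligned reads to mm10 with STAR 2.5.2b and made the deposited counts with featureCounts and its built-in annotation, counting a read for every gene it overlapped and leaving out reads that map to several places. Symbols came from RefSeq GRCm38.p6 (25275 of 27179 identifiers, 93.0%) and gene positions and exon lengths from GENCODE (GRCm38), so that CPM per kb is approximate.

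The treatments were compared in edgeR 4.0.16 under R 4.3.3 (quasi-likelihood test; TMM, filterByExpr with minimum count 10 and minimum total 15), two-sided, with Benjamini-Hochberg adjustment over all 16335 genes and a call below 0.1. Alternatives were other scalings and filters, DESeq2 1.42.0, limma-voom with sample weights (limma 3.58.1), a replicate block, either sequencing batch alone and each mouse left out. The study used experimental batch as a covariate; whether that is the labelled sequencing batch is not stated. Every mouse is in both sequencing batches, so no batch term was used here. Poisson intervals (95%) cover only counting error and not variation between mice. There were no molecular identifiers and duplicate reads were counted, so the intervals may be too narrow even for counting error. Scripts were tested on simulated data. Named genes were all 10 members, the 6 of smallest p among other pan-endothelial genes, every measured ligand and co-receptor, up to 2 genes of every other list, and the 8 genes nearest in pattern; any other gene named was chosen after its values were seen. The members and lists were chosen with earlier results of these data known.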

Additional observations from a re-analysis of the deposited data

Results flagged for a closer look

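Among 22 groups of 4 mice tested for a value far from the rest, 1 was found: Esam in control mouse 3 was at 0.650 CPM, against 0.357 to 0.385 CPM in the other 3 control mice. The gap to the nearest was 0.902 of the whole range, above the 95% critical value of Dixon's test. Chance is expected to give about 1 in 20 such groups.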

How the results depend on the processing

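None of the 10 members was called under any alternative that gave it an adjusted p, and DESeq2 gave none for 9 of them. The log2 fold changes of Vwf, Pecam1, Tek, Tie1 and Egfl7 stayed above 0 in each. Genes called over the whole table were 0 in the main test and 11 with DESeq2, and 0 in the others, leave-one-out tests included. Flt1 changed sign with limma-voom (0.085), in batch 2 alone (0.25) and without control mouse 4 (0.36) or anti-IL-17A/F mouse 4 (0.13), with a leave-one-out range of -0.30 to 0.36. Kdr was -0.11 in batch 2 alone and ranged from -0.11 to 0.39 with 1 mouse left out. The same ranges were -0.056 to 0.79 for Emcn, -0.072 to 0.37 for Esam and -0.11 to 0.64 for Cdh5. For the other members they were 0.38 to 0.77 (Pecam1), 0.42 to 0.91 (Vwf), 0.13 to 0.53 (Tek), 0.28 to 0.88 (Tie1) and 0.24 to 0.73 (Egfl7), each lowest without anti-IL-17A/F mouse 4. The log2 ratio of the summed level was 0.24 to 0.60 with 1 mouse left out, 0.45 and 0.48 with other scalings, 0.44 and 0.50 in batches 1 and 2 alone, and 0.34 without Vwf and 0.50 without Flt1, both chosen after seeing the data. The cause of these changes was not tested.

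The same-numbered mice of the groups share a number in the labels, and their correlations were -0.26 to 0.25. Whether they also shared an experimental batch is not stated and cannot be decided from these correlations. With the replicate block 0 genes and 0 members were called, and Flt1 was at 0.058; not every mouse correlated best with its own number. The filter of at least 1 CPM in 4 mice kept Pecam1, Flt1, Vwf and Egfl7 alone, and batch 1 gave no value for Esam, Tie1 and Emcn and batch 2 none for Emcn. Members had 3 to 305 counts per mouse, and the variance among treated mice was 1.57 (Kdr) to 45 (Vwf) times that expected from counting error.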

Other observations

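The endothelial selectins, adhesion molecules that slow leukocytes on activated vessel walls, were below the filter and were chosen after their values were seen. Sele had 3, 3, 4 and 3 counts in control mice and 12, 2, 5 and 12 counts in anti-IL-17A/F mice 1 to 4. Selp, which endothelial cells store together with von Willebrand factor, had 3, 8, 9 and 5 counts in control mice and 21, 1, 4 and 18 counts in anti-IL-17A/F mice. Both genes were thus highest in anti-IL-17A/F mice 1 and 4, the mice with the high Vwf, and 14.1% of the exonic sequence of Selp is overlapped by genes on the opposite strand. The other pan-endothelial genes below the filter did not all share this pattern. Gpihbp1 (0.0440 and 0.0248 CPM in control and treated means) and Aplnr (0.127 and 0.0724 CPM) were lower in treated mice and highest in control mouse 1. Sox17 and Dll4 were highest in treated mouse 2. Erg, Myct1 and Adgrl4 were highest in treated mouse 4 and Cyyr1 in treated mouse 1.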
